A study of Mus musculus with 6 samples.

Results

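Blood-forming cytokines of the marrow stroma and their receptors were followed as 7 genes, all present by symbol among the 17128 genes of the count table: the ligand genes Kitl, Il7, Flt3l and Il15, and the receptor genes Kit, Il7r and Flt3. The rule took growth factors that stroma makes for blood precursors, with the matching receptors. RNA was sequenced from sorted femur cells of mice at postnatal day 21, about 20000 cells per library, in 3 CXCL12-deficient and 3 control libraries. CXCL12-deficient libraries held GFP+ tdTomato+ cells of mice that carried Cxcl12(GFP/fl), the transgene Col2a1-cre and the reporter R26R(tdTomato/+). Control libraries held GFP+ cells of mice with Cxcl12(GFP/fl) and R26R(tdTomato/+) but no cre, with no tdTomato gate. In every mouse GFP replaced Cxcl12 on one allele and the other was floxed, so controls too had a single working copy. The cre is driven by Col2a1, a gene of cartilage and its precursors, so that sort gate, cre transgene and loss of Cxcl12 cannot be told apart. Whether the libraries stem from different mice is not in the labels, so a p-value here reflects only how much these libraries vary, which may be technical.

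Stem cell factor (from Kitl) is displayed on stromal and endothelial cells and signals through the receptor tyrosine kinase KIT on blood stem cells, progenitors and mast cells. FLT3 is a related receptor kinase of early progenitors and dendritic cells, and its ligand comes from Flt3l. Interleukin 7 drives the growth of early B and T cells through a receptor made of the chain from Il7r and the common gamma chain from Il2rg. Interleukin 15 supports natural killer cells through chains from Il2rb and Il2rg and is presented by the chain from Il15ra. In marrow the stromal cells rich in CXCL12, known as CXCL12-abundant reticular (CAR) cells, are a main source of stem cell factor and interleukin 7, while the receptors are known mainly from blood cells.

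The start regions of 3 genes are shown because they stand for both sides of the comparison: Il7r, the only gene of the set that passed the test, Flt3, another receptor, and Kitl, the most abundant ligand. Promoter windows from RefSeq (GRCm38.p6, 250 bases before to 50 after the start) were found for 5 of the 7 genes, and the other two are Il7 and Il15. Capitals mark 3 short motifs searched on both strands, the ETS core GGAAGT, the RUNX motif TGTGGT and the TATA box TATAAA, none of which overlapped another here. Of 32851 windows in the table, 23.8% held the ETS core, 16.8% the RUNX motif and 13.6% the TATA box.
Il7r, chr15:9529827-9530126, minus strand: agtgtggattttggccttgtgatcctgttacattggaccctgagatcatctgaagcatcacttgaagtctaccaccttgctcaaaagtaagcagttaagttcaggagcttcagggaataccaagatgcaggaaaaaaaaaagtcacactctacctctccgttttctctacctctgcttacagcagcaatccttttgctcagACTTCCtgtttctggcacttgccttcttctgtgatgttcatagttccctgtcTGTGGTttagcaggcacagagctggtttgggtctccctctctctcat
Flt3, chr5:147400440-147400739, minus strand: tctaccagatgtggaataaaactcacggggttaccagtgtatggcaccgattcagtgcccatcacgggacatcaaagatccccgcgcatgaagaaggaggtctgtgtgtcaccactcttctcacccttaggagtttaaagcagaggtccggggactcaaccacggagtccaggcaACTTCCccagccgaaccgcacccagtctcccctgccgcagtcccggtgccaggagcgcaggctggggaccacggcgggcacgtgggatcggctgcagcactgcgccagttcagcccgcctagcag
Kitl, chr10:100015571-100015870, plus strand: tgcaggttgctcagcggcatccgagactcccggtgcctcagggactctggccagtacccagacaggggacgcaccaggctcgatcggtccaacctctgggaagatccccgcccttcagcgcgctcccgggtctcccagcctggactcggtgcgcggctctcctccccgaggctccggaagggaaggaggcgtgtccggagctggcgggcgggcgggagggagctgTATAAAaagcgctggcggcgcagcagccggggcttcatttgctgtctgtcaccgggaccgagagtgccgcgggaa
The ETS core lay on the opposite strand at -49 in Il7r and at -75 in Flt3, the RUNX motif at 4 in Il7r and the TATA box at -25 in Kitl, counted from the start site to the first base. None of the 3 strings was found in the windows of Kit or Flt3l. GC content was 45.7% in the Il7r window, 61.0% in that of Flt3 and 68.7% in that of Kitl, against a median of 52.7% over all windows. These matches describe the sequence and were not tied to binding.

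Stem cell factor exists in a form that is readily shed and a form that stays on the membrane, which differ by a single alternative exon. In GENCODE M21 it is exon 6 of the transcript Kitl-202, 84 bases that the transcript Kitl-201 skips, and it encodes the main protease site.
Kitl exon 6, GRCm38 chr10:100080857-100080940, plus strand: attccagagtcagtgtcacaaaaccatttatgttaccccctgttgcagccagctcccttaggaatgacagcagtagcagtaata
The deposited counts are 1 number per gene, so the Kitl values add both forms together.

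The libraries were of similar depth, with total counts between 20133299 and 28009257, so that 1 read was worth 0.0357 to 0.0472 CPM (TMM-scaled CPM, a count relative to library size). Cxcl12, the targeted gene, had 1423, 1279 and 1163 CPM in CXCL12-deficient libraries, against 3874, 3671 and 3692 CPM in control libraries. These values sum 4 exon entries, so they do not show how complete the loss of working Cxcl12 was. The 10 CAR markers summed to between 11354 and 13682 CPM in CXCL12-deficient libraries and between 7026 and 8113 CPM in control libraries, with none of the 10 at 0. The summed pan-leukocyte markers ran from 311 to 622 CPM in CXCL12-deficient libraries and from 1506 to 2467 CPM in control libraries, so both sorts also held blood cell RNA. The osteoblast marker sum stood out in a library of each group. It was 11937 CPM in CXCL12-deficient replicate 2, against 6471 and 6393 CPM in replicates 1 and 3. In control replicate 1 it was 16167 CPM, against 4891 and 3722 CPM. The excess in CXCL12-deficient replicate 2 came mainly from Col1a1, at 7051 CPM there, against 1518 and 1419 CPM. Bglap, Bglap2 and Sp7 were also highest there, while Ibsp, Dmp1, Alpl and Runx2 were not.

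Of the 7 genes 1 was called, the receptor gene Il7r, which fell in CXCL12-deficient libraries. All 3 receptor genes had lower means there and all 4 ligand genes higher means. Of all 13926 genes tested by edgeR, 4.57% were called at an adjusted p below 0.05, 3.94% lower and 0.639% higher in CXCL12-deficient libraries. Those 637 genes became 160 when control replicate 2 was omitted and 74 when control replicate 3 was. The groups did not overlap at 4 of the 7 genes (Il7r, Flt3 and Kit lower, Flt3l higher), against 25.6% of all tested genes, 13.9% lower and 11.7% higher. All 7 passed the filter on low counts, Flt3 through its control libraries, with 4, 40 and 0 reads in CXCL12-deficient libraries. The median log2 fold change of the 7 was 0.39, against 0.03 over all tested genes.

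**Figure D1:**
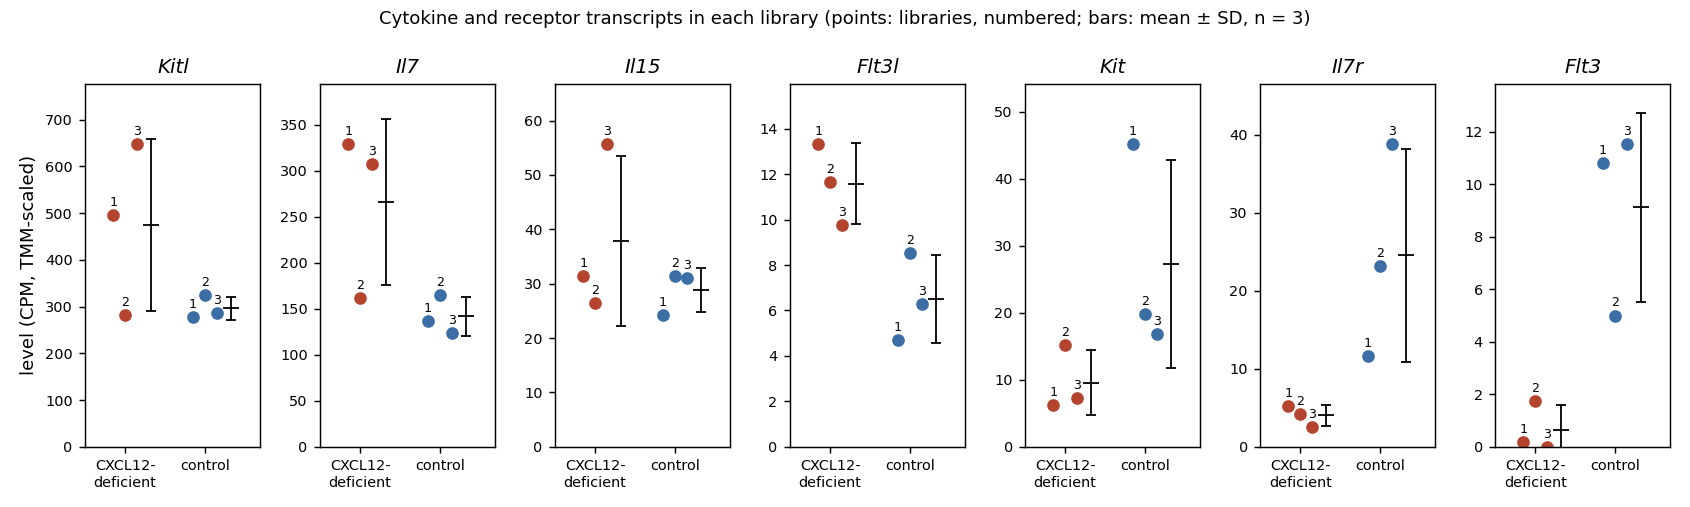
Level of the 7 genes (CPM, linear axes from 0) in each CXCL12-deficient library (left, red) and each control library (right, blue), numbered by replicate, with mean and SD of n = 3. CXCL12-deficient replicate 2 lay within the control range for Kitl, Il7 and Il15, while for Flt3l, Kit, Il7r and Flt3 the groups did not overlap.

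Kitl, the stem cell factor gene, had 496, 281 and 648 CPM in CXCL12-deficient libraries, against 277, 325 and 287 CPM in control libraries. Replicates 1 and 3 of the CXCL12-deficient group lay above every control, but replicate 2 lay among the controls, so the groups overlapped. The means were 475 ± 184 and 296 ± 25.2 CPM (SD, n = 3 each), and the log2 fold change of 0.68 ± 0.27 (SE; 95% interval 0.07 to 1.29) was not called (adjusted p = 0.21, edgeR). Without CXCL12-deficient replicate 2 the log2 fold change was 0.95 and passed (adjusted p = 0.036, edgeR). No other refit without a library passed, and without CXCL12-deficient replicate 3 it was 0.39 (adjusted p = 0.47). In bulk libraries such as these, fewer cells of a type and less RNA per cell cannot be told apart, for Kitl and for every gene below. In GENCODE M21 (GRCm38) Kitl occupies positions 100015630 to 100100416 of chromosome 10, plus strand.

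Il7, the gene of the lymphoid growth factor interleukin 7, had 329, 162 and 307 CPM in CXCL12-deficient libraries, against 137, 165 and 123 CPM in control libraries. The same library, CXCL12-deficient replicate 2, fell just below the highest control, and the other two were well above all controls. The means were 266 ± 90.7 and 142 ± 21.3 CPM, with a log2 fold change of 0.91 ± 0.26 (95% interval 0.32 to 1.49) that was not called (adjusted p = 0.093, edgeR). DESeq2 called it at adjusted p = 0.014, and edgeR did so once CXCL12-deficient replicate 2 was omitted, at a log2 fold change of 1.17 (adjusted p = 0.022). No other refit without a library called it. Il7 spans 7569994 to 7613760 on the minus strand of chromosome 3, where an antisense gene, Gm16685, overlaps it. As the strand setting of the counting is not given in the sources used here, reads of the pair may not have been separated.

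Flt3l, which encodes the FLT3 ligand, was much less abundant, with 13.3, 11.6 and 9.76 CPM in CXCL12-deficient libraries, against 4.71, 8.53 and 6.28 CPM in control libraries. Every CXCL12-deficient library was above every control, by a narrow margin between 9.76 and 8.53 CPM. The log2 fold change of 0.83 ± 0.31 (95% interval 0.13 to 1.54) was not called (adjusted p = 0.19, edgeR), nor did DESeq2, limma-voom or any refit without a library call it. Flt3l lies on the minus strand of chromosome 7 (45129788 to 45136432) and the protein-coding entry Gm45713 overlaps it on the same strand, so its count is uncertain.

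Il15 had 31.4, 26.5 and 55.7 CPM in CXCL12-deficient libraries, against 24.2, 31.4 and 31.1 CPM in control libraries. Only CXCL12-deficient replicate 3 stood above the controls. The log2 fold change of 0.39 ± 0.28 had a 95% interval from -0.25 to 1.03 (adjusted p = 0.52, edgeR), which includes 0, and without that replicate it was 0.0023. Its gene lies at 82331632 to 82403222 on the minus strand of chromosome 8.

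The ligands were also set against the CAR markers of the same library, a comparison added after the values were seen. On the log2 scale, Kitl over the summed CAR markers was -4.79, -5.34 and -4.30 in CXCL12-deficient libraries, against -4.77, -4.64 and -4.61 in control libraries. For Il7 this ratio was -5.38, -6.13 and -5.38 in CXCL12-deficient libraries, against -5.78, -5.62 and -5.83 in control libraries. The groups overlapped in both ratios, with differences of -0.13 and 0.12 (exact permutation p = 0.7 and 0.8, two-sided; adjusted p = 0.86 and 0.88 over 11 ratios). Both differences changed sign on leaving out a library: the Kitl ratio gave 0.13 without CXCL12-deficient replicate 2, and the Il7 ratio gave -0.00993 without CXCL12-deficient replicate 1 and -0.00962 without replicate 3. The Flt3l and Il15 ratios differed by 0.12 and -0.41 (exact permutation p = 0.7 and 0.3; adjusted p = 0.86 and 0.47), and the first gave -0.0923 without control replicate 1. Of the CAR markers 10 of 10 had a positive log2 fold change, while 47.4% of all tested genes had a negative one. Of the 10 CAR markers 3 rose (Ebf3, Adipoq and Cxcl14), against 0.639% of all tested genes. The most abundant were Hp, at 3637 and 1817 CPM, and Vcam1, at 2231 and 1920 CPM, in CXCL12-deficient and control libraries. The 3 calls became 0 without CXCL12-deficient replicate 1 or without control replicate 2 or 3, and 1 without control replicate 1.

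Il7r, the receptor chain of interleukin 7, had 5.29, 4.18 and 2.57 CPM in CXCL12-deficient libraries, against 11.7, 23.2 and 38.8 CPM in control libraries. Behind these values stood 127, 96 and 58 reads in CXCL12-deficient libraries and 327, 570 and 822 reads in control libraries. The groups were well apart, although the controls spread more than 3-fold. Il7r was 6.10-fold lower (log2 fold change -2.61 ± 0.46, 95% interval -3.65 to -1.57, adjusted p = 0.017, edgeR). The call did not hold without CXCL12-deficient replicate 2 (adjusted p = 0.0545), control replicate 2 (0.061) or control replicate 3 (0.076), nor in limma-voom (0.0503). Across the 6 refits that omit a library its log2 fold change ran from -2.97 to -2.13. The gene spans 9505788 to 9530176 on the minus strand of chromosome 15, with no other annotated gene over it.

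Leukocyte genes fell beside Il7r, while 3.94% of all tested genes were called lower and 47.4% had a negative log2 fold change. The leukocyte antigen gene Ptprc had 12.7, 16.9 and 10.2 CPM in CXCL12-deficient libraries, against 59.8, 75.4 and 107 CPM in control libraries (log2 fold change -2.60). On the log2 scale Il7r over Ptprc was -1.25, -1.99 and -1.94 in CXCL12-deficient libraries, against -2.35, -1.70 and -1.46 in control libraries. These overlapped, and their difference of 0.11 (exact permutation p = 0.9, two-sided; adjusted p = 0.90 over 11 ratios) became -0.13 without CXCL12-deficient replicate 1 and -0.15 without control replicate 1. All 8 pan-leukocyte markers fell, led by abundance by Coro1a and Rac2, 5 of them when control replicate 2 was omitted and 4 when control replicate 3 was. Of 12 B lineage markers, the cells in which interleukin 7 acts in marrow, all 12 had a negative log2 fold change and 3 fell (Cd79a, Rag1 and Blnk). That count was 0 without CXCL12-deficient replicate 1 or 2 or control replicate 2 or 3, 1 without CXCL12-deficient replicate 3 and 7 without control replicate 1. Their sum, with Cd79b and Cd79a the most abundant, was 280, 216 and 93.8 CPM in CXCL12-deficient libraries, against 381, 720 and 1055 CPM in control libraries. Il7r followed the order of this sum and of the pan-leukocyte sum within both groups, an observation made after the values were seen. The T and NK cell markers summed to between 20.5 and 38.8 CPM in CXCL12-deficient libraries, against 57.8 to 80.9 CPM in control libraries. Most of the control sum was Nkg7 and Tcf7, which averaged 42.4 and 15.45 CPM in controls. Cd3e, Cd3d, Cd3g, Klrd1, Ncr1 and Cd4 averaged between 1.06 and 1.61 CPM in controls, and Cd8a and Gata3 under 1 CPM. Of 9 T and NK cell markers tested 1 fell (Nkg7), while Tcf7 had a log2 fold change of -0.24. Omitting CXCL12-deficient replicate 2 made that count 2, and omitting any other single library made it 0. None of the 8, 12 and 10 markers in these lists was without reads in all 3 CXCL12-deficient libraries. The part of these cells in the lower Il7r was not tested.

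Flt3, the receptor kinase of early progenitors and dendritic cells, was nearly without reads in CXCL12-deficient libraries. It had 4, 40 and 0 reads there, or 0.167, 1.74 and 0 CPM, against 303, 123 and 244 reads, or 10.8, 4.997 and 11.5 CPM, in control libraries. No CXCL12-deficient library came near the lowest control, and 40 of the 44 reads were in replicate 2. The log2 fold change of -3.83 ± 1.08 (95% interval -6.28 to -1.38) was not called (adjusted p = 0.091, edgeR). Of the refits without a library only that without CXCL12-deficient replicate 2 passed, at -6.65 (adjusted p = 0.022). On the deposited regularized log2 values, with all 6 libraries, the log2 fold change was -1.08 and passed (adjusted p = 0.0061, limma). In limma-voom it was -5.45 (adjusted p = 0.067), so its size moved with that library and with the method. Flt3 spans 147330741 to 147400489 on the minus strand of chromosome 5, and the antisense gene Gm26597 overlaps it.

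Dendritic cell markers other than Flt3 summed to 68.6, 74.2 and 51.8 CPM in CXCL12-deficient libraries, against 141, 140 and 194 CPM in control libraries. Flt3 stood in the same order as this sum within both groups, which was noticed after the values were seen. Of 8 tested list genes, Flt3 included, 2 fell (Irf8 and Cd209d), against 3.94% of all tested genes. The count was 1 without CXCL12-deficient replicate 1, CXCL12-deficient replicate 3, control replicate 1 or control replicate 2, and 0 without control replicate 3. Of the defining markers Siglech, a gene of plasmacytoid dendritic cells, had 0, 2.79 and 0.710 CPM in CXCL12-deficient libraries, against 7.60, 8.53 and 13.1 CPM in control libraries. Its groups did not overlap, but it was not called (log2 fold change -3.06, adjusted p = 0.14, edgeR), and neither was Ccr9 (means 0.688 CPM in CXCL12-deficient and 2.45 CPM in control libraries). Cd209d was without reads in all CXCL12-deficient libraries, and Xcr1, Clec9a, Itgax and Cd209d averaged under 1 CPM in controls. The most abundant, Irf8 and Zbtb46, also serve in other cells and had log2 fold changes of -1.62 and 0.30. Flt3 over Ptprc on the log2 scale was -5.59, -3.21 and -6.68 in CXCL12-deficient libraries, against -2.46, -3.89 and -3.20 in control libraries, with overlap (difference -1.98, exact permutation p = 0.2, two-sided; adjusted p = 0.47 over 11 ratios). With a pseudocount of 1 CPM in place of 0.1 CPM that difference was -0.20. The part of dendritic cells or progenitors in the Flt3 values was not tested.

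Kit, the stem cell factor receptor, had 6.29, 15.1 and 7.23 CPM in CXCL12-deficient libraries, against 45.2, 19.8 and 16.8 CPM in control libraries. Replicate 2 was the highest of the CXCL12-deficient group and came close to the lowest control, and control replicate 1 stood far above the other controls. The log2 fold change of -1.52 ± 0.46 (95% interval -2.54 to -0.49) was not called by edgeR (adjusted p = 0.11) but was by DESeq2 (adjusted p = 0.010). Omitting CXCL12-deficient replicate 2 gave -2.01, and omitting control replicate 1 gave -0.96. Kit occupies positions 75574916 to 75656722 of chromosome 5, plus strand, with no overlapping gene annotated.

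Unlike Il7r, Kit did not stand in the order of the pan-leukocyte sum in either group. That contrast does not extend to every leukocyte gene. Among CXCL12-deficient libraries Ptprc was highest in replicate 2 (12.7, 16.9 and 10.2 CPM), as was Kit but not Il7r. The 2 highest Kit libraries within their groups, CXCL12-deficient replicate 2 and control replicate 1, were the 2 with the highest osteoblast marker sums. Control replicate 1 had the lowest pan-leukocyte sum of the controls. Kit over Ptprc on the log2 scale was -1.003, -0.16 and -0.48 in CXCL12-deficient libraries, against -0.40, -1.92 and -2.66 in control libraries. The groups overlapped, with a difference of 1.11 (exact permutation p = 0.3, two-sided; adjusted p = 0.47 over 11 ratios). Of the 8 osteoblast markers, edgeR, DESeq2 and limma-voom each called 0, and 0 passed at an unadjusted p below 0.05, while edgeR called 2 without control replicate 1. Col1a1, the most abundant, had 1518, 7051 and 1419 CPM in CXCL12-deficient libraries, against 9814, 2122 and 1248 CPM in control libraries. Ibsp was next (log2 fold change 0.61), with 3126, 2319 and 2377 CPM in CXCL12-deficient libraries, so it was lowest in replicate 2. Dmp1, Alpl and Runx2 were not highest in CXCL12-deficient replicate 2 either, while Bglap, Bglap2 and Sp7 were. In that library the high osteoblast sum came mainly from Col1a1. The match of Kit with the osteoblast sum was noticed after the values were seen, and a link to osteoblast RNA was not tested.

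**Figure D2:**
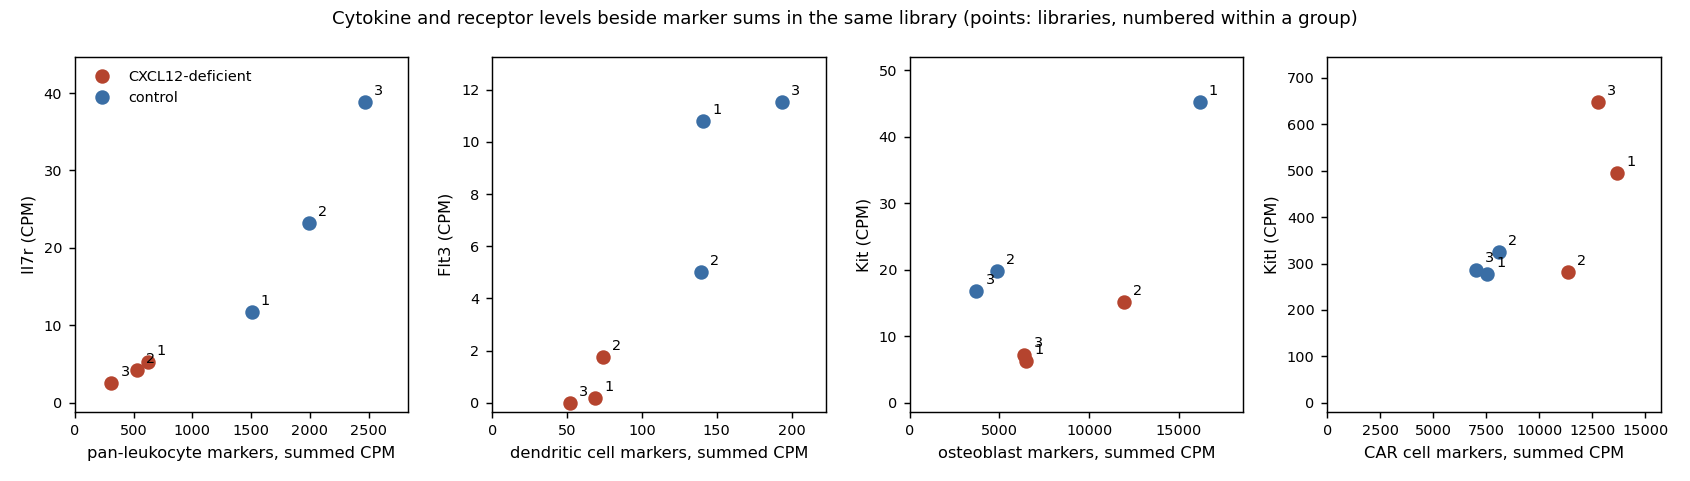
Level of Il7r, Flt3, Kit and Kitl (CPM, vertical axes) against the summed CPM of a marker list in the same library (horizontal axes), for 3 CXCL12-deficient (red) and 3 control (blue) libraries numbered by replicate. Il7r stood in the order of the pan-leukocyte sum within each group, Kit was highest in CXCL12-deficient replicate 2 and control replicate 1, and Kitl in CXCL12-deficient replicate 2 lay at the control level although its CAR marker sum was 11354 CPM.

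Markers of other cells known to carry KIT were also summed. Over all tested genes 3.94% were called lower. Mast cell markers summed to 81.7, 58.8 and 27.0 CPM in CXCL12-deficient libraries, against 177, 183 and 220 CPM in control libraries. Most of that sum was Hdc, also a gene of other myeloid cells, which fell (log2 fold change -1.84, adjusted p = 0.021, edgeR) as 1 of 4 tested, and which was not called without control replicate 2 or 3. Gata2 had a log2 fold change of -1.04 (adjusted p = 0.43). Cpa3, the mast cell carboxypeptidase gene, had 1.42, 2.44 and 0 CPM in CXCL12-deficient libraries, against 4.21, 9.30 and 10.01 CPM in control libraries. The groups did not overlap, but it was not called (log2 fold change -2.60, adjusted p = 0.20). The defining markers Mcpt4, Cma1, Fcer1a and Ms4a2 averaged under 1 CPM in controls, and Cma1 had no reads in CXCL12-deficient libraries. Stem and progenitor markers summed to 319, 283 and 362 CPM in CXCL12-deficient libraries, against 319, 449 and 518 CPM in control libraries. Much of this was Angpt1, which stroma also makes (log2 fold change 0.41). Angpt1 had 190, 105 and 273 CPM in CXCL12-deficient libraries, against 102, 167 and 158 CPM in control libraries. The sum is therefore a poor guide to progenitor RNA. Gfi1b (-0.14) was the next most abundant of these markers. Of 11 tested 3 fell, Cd34 and Myb among them, and 5 without CXCL12-deficient replicate 2. Mecom had no reads in CXCL12-deficient libraries. Endothelial markers summed to between 135 and 168 CPM in CXCL12-deficient libraries and between 214 and 284 CPM in control libraries. Of these 12 markers 6 fell, among them Pecam1 (log2 fold change -2.34). That count was 3 without control replicate 1 or 2 and 2 without control replicate 3. Eng, the most abundant, had a log2 fold change of 0.10 and averaged 116 CPM in CXCL12-deficient and 108 CPM in control libraries. It made up most of the endothelial sum in CXCL12-deficient libraries. Which of these cells carried the Kit reads was not tested.

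Of the neutrophil, macrophage and megakaryocyte lists 12 of 13, 4 of 10 and 5 of 7 tested members fell, while of 8 erythroid markers edgeR, DESeq2 and limma-voom each called 0, with 0 at an unadjusted p below 0.05. The first 3 counts were 1, 1 and 3 without control replicate 3, and 3, 3 and 3 without control replicate 2. The neutrophil count was 6 without CXCL12-deficient replicate 2, the megakaryocyte count 3 without CXCL12-deficient replicate 1, and the erythroid count 1 without CXCL12-deficient replicate 3. Their most abundant members had log2 fold changes of -1.98 (Ngp), -1.92 (Ltf), -2.43 (Lyz2), -2.07 (Cd14), -4.58 (Pf4), -2.92 (Itga2b), 0.83 (Alas2) and 0.75 (Beta-s). The macrophage list was split, with 6 negative and 4 positive log2 fold changes. Lyz2, Cd14, Csf1r and Itgam fell, whereas the complement genes C1qa, C1qb and C1qc and the mannose receptor gene Mrc1 had values of 0.46, 0.78, 0.78 and 0.29, all with overlapping groups and none called. Over all marker lists 44 of 118 tested genes fell (37.3%, against 3.94% of all tested genes) and 3 rose. Of all tested genes 0.639% were called higher. The 47 marker calls became 19 without control replicate 2 and 12 without control replicate 3.

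Each receptor was set against its own ligand within a library. Kit over Kitl on the log2 scale was -6.28, -4.21 and -6.46 in CXCL12-deficient libraries, against -2.61, -4.03 and -4.09 in control libraries. The nearest libraries of the groups, at -4.21 and -4.09, almost met. Il7r over Il7 was -5.93, -5.24 and -6.84 in CXCL12-deficient libraries, against -3.54, -2.83 and -1.66 in control libraries, with a wide gap. Flt3 over Flt3l was -5.65, -2.67 and -6.62 in CXCL12-deficient libraries, against 1.18, -0.76 and 0.87 in control libraries. The differences were -2.08, -3.33 and -5.41, each with no overlap and an exact permutation p of 0.1 (two-sided, the smallest that 3 against 3 allows; adjusted p = 0.37 over 11 ratios). The Flt3 ratio depended on the pseudocount, with a difference of -3.47 at 1 CPM. Il7 over Kitl, a pair of ligands, differed by 0.25 with overlapping groups (exact permutation p = 0.3; adjusted p = 0.47).

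Levels of different genes were compared per kilobase of annotated exon. In controls the order of the means was Kitl (50.1 ± 4.25 CPM per kb), Il7 (25.0 ± 3.76), Il15 (12.8 ± 1.79), Il7r (5.26 ± 2.92), Kit (3.06 ± 1.75), Flt3l (1.68 ± 0.50) and Flt3 (1.48 ± 0.58; SD, n = 3 each). Neighbours did not overlap from Kitl down to Il7r, while Il7r and Kit, Kit and Flt3l, and Flt3l and Flt3 did. In CXCL12-deficient libraries Kitl (80.3 ± 31.1 CPM per kb) and Il7 (47.0 ± 16.0) overlapped each other, and Il15 followed at 16.7 ± 6.92. Flt3l, at 2.98 ± 0.46 CPM per kb, stood above Kit (1.07 ± 0.54), Il7r (0.861 ± 0.293) and Flt3 (0.103 ± 0.156) in CXCL12-deficient libraries, whereas in controls its mean lay below those of Il7r and Kit. The exon lengths come from GENCODE M21, which may differ from the annotation used for counting.

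**Figure D3:**
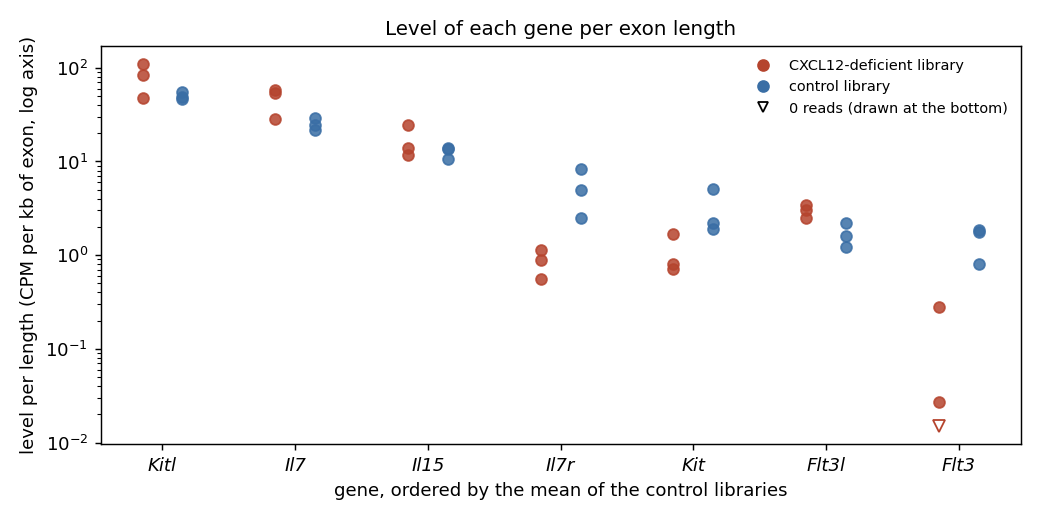
Level of each gene per kilobase of exon (CPM per kb, log axis) in CXCL12-deficient (red, left) and control (blue, right) libraries, ordered by the control mean. Kitl, Il7 and Il15 lie above the 3 receptors in both groups, and Flt3 had 0 reads in CXCL12-deficient replicate 3, drawn as an open triangle at the bottom.

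Of 5 chains that share or partner the receptors 2 fell, against 3.94% called lower over all tested genes. Il2rb, the interleukin 15 receptor chain of natural killer and T cells, had 0.708, 2.18 and 0.799 CPM in CXCL12-deficient libraries, against 4.32, 8.94 and 15.4 CPM in control libraries (7.74-fold lower, adjusted p = 0.032, edgeR). Il2rg, the common gamma chain, had 16.8, 14.4 and 16.5 CPM in CXCL12-deficient libraries, against 30.4, 47.3 and 59.0 CPM in control libraries (2.86-fold lower, adjusted p = 0.015). Neither gene overlapped between the groups. Il2rb was not called without CXCL12-deficient replicate 1 or 3 or control replicate 2 or 3, and Il2rg was not without control replicate 2 or 3. Il15ra, the chain that presents interleukin 15, had 6.37, 4.58 and 5.19 CPM in CXCL12-deficient libraries, against 5.74, 5.04 and 4.01 CPM in control libraries, with overlap.

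Among 15 transducers 2 fell and 0 rose, with a list median of -0.21 on the log2 scale against 0.03 over all tested genes. Pik3cd, the leukocyte form of the PI3 kinase catalytic subunit, was 3.74-fold lower (9.30 ± 5.27 CPM in CXCL12-deficient and 34.8 ± 12.5 CPM in control libraries; adjusted p = 0.040, edgeR). Lyn, a Src family kinase of blood cells, was 1.81-fold lower (105 ± 10.2 against 190 ± 16.4 CPM; adjusted p = 0.016). Lyn was not called without control replicate 2 or 3, and among the refits Pik3cd was called only in that without CXCL12-deficient replicate 2. The widely expressed kinase gene Jak1 had 248, 182 and 260 CPM in CXCL12-deficient libraries, against 261, 258 and 279 CPM in control libraries, with overlap. It was named after its values were seen, as were Il15ra and Stat5a. Stat5a, a transcription factor that these receptors activate, had 173, 173 and 245 CPM in CXCL12-deficient libraries, against 157, 156 and 116 CPM in control libraries. Its groups did not overlap, but it was not called (log2 fold change 0.46, adjusted p = 0.24).

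Of 10 negative regulators 2 fell, the phosphatase genes of blood cells Ptpn6, encoding SHP-1, and Inpp5d, encoding SHIP-1. Ptpn6 had 61.7, 52.7 and 45.1 CPM in CXCL12-deficient libraries, against 188, 253 and 282 CPM in control libraries (4.54-fold lower, adjusted p = 0.0032, edgeR), and its call held in all 6 refits without a library. Inpp5d had 7.50, 16.9 and 6.70 CPM in CXCL12-deficient libraries, against 34.8, 44.5 and 71.1 CPM in control libraries (4.83-fold lower, adjusted p = 0.017), and was not called without CXCL12-deficient replicate 1 or control replicate 2 or 3. The feedback genes Cish, Socs1, Socs2 and Socs3, induced by cytokine signals in many cells and named after their values were seen, all overlapped between the groups. Over the receptor chains, transducers, negative regulators, shedding proteases and other stromal cytokines together, 6 of 44 tested genes fell (13.6%, against 3.94% of all tested genes) and 0 rose, with a median log2 fold change of -0.12. The 6 became 3 without CXCL12-deficient replicate 1 and 1 without control replicate 2 or 3, and the refits without control replicate 2 or 3 kept only Ptpn6.

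Of the 3 proteases that can release membrane cytokines 0 were called by edgeR or limma-voom, with 1 at an unadjusted p below 0.05 and 1 by DESeq2. All 3 log2 fold changes were negative. Adam10 had 59.7, 54.2 and 58.3 CPM in CXCL12-deficient libraries, against 73.7, 80.4 and 86.8 CPM in control libraries. Its groups did not overlap, but edgeR did not call it (log2 fold change -0.48, adjusted p = 0.11). Mmp9 had 351, 888 and 541 CPM in CXCL12-deficient libraries, against 825, 663 and 722 CPM in control libraries, with wide overlap. Adam17 had 103, 79.3 and 142 CPM in CXCL12-deficient libraries, against 84.0, 130 and 125 CPM in control libraries, and its log2 fold change of -0.06 turned positive in 3 of 6 refits without a library. Of 11 tested other stromal cytokines 0 were called by edgeR, DESeq2 or limma-voom, with 1 at an unadjusted p below 0.05. The most abundant were Spp1, the osteopontin gene (7499 ± 813 against 7929 ± 4166 CPM in CXCL12-deficient and control libraries), and Igf1 (457 ± 307 against 396 ± 169 CPM). Both overlapped, and their log2 fold changes of -0.08 and 0.21 changed sign in 2 refits each without a library.

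**Figure D4:**
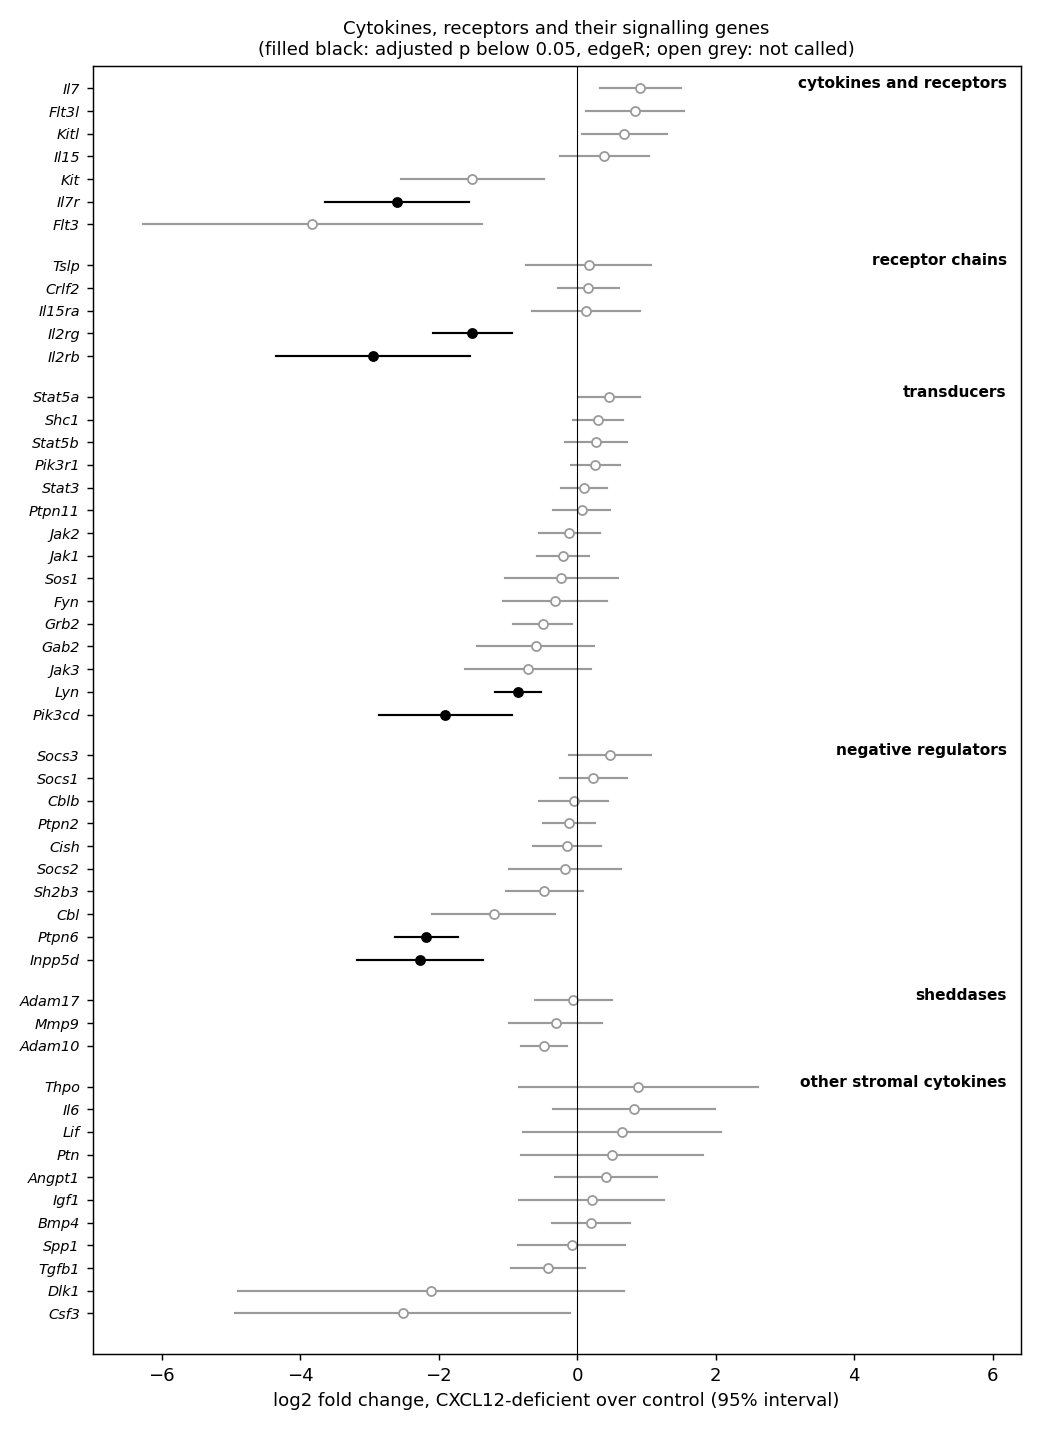
Log2 fold change of CXCL12-deficient over control libraries with its 95% interval for the 7 genes and for 44 tested genes of their pathways, grouped by role. Filled black points were called by edgeR (Il7r, Il2rg, Il2rb, Lyn, Pik3cd, Ptpn6 and Inpp5d, all lower), and open grey points were not.

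Genes with the most similar profile were sought among tested genes of at least 5 CPM on average, by Pearson correlation of log2 values over the 6 libraries, as a description. For Il7r the 2 closest were Sash3 (r = 0.998) and Pik3ap1 (r = 0.997), for Kit Vps13b (0.993) and Spns2 (0.992), and for Flt3 Dgat2 (0.997) and Ppp1r13b (0.995). For Kitl they were Agpat5 (0.990) and Cp (0.987), for Il7 Arl3 (0.992) and 1500009L16Rik (0.991), for Flt3l Ino80b (0.982) and Ngrn (0.976), and for Il15 Ube2q2 (0.991) and Zfp275 (0.991). All share the same 6 libraries, and each gene was set against 10841 candidates (10842 for Flt3), so high values are easily reached.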

How the data were processed

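The authors deposited raw counts per gene, a depth-normalized signal table and regularized log2 values for the same 6 libraries. The deposited signal equalled the counts divided by 1 factor per library and was used only for that check. The submitters' processing notes name TopHat2 2.0.13, Bowtie2 2.2.1, HTSeq, Cufflinks, Cuffdiff, DESeq2 and FastQC with mm10, without roles. For annotation, strand setting and multi-mapped reads the authors' choice was not given in the sources used here. The design text names a SMARTer amplification kit, so reads include PCR copies.

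The 4 Cxcl12 exon entries were summed (17131 entries, 17128 genes). edgeR 4.0.16 (R 4.3.3; TMM, filterByExpr with minimum count 10 and total 15, robust quasi-likelihood F-test, Benjamini-Hochberg over all 13926 tested genes, threshold 0.05) was tested on simulated data. SE came from the F statistic, and 95% intervals are unadjusted. Ratios used log2(CPM + 0.1) and exact permutation of libraries. Alternatives used DESeq2 1.42.0, limma 3.58.1, other factors, filters and thresholds, and left out each library. The 7 genes and the lists were chosen with earlier results of these data known. Of 173 list genes, 4 were found under a synonym and 4 matched no entry. Pathway genes were named as the up to 4 called with the largest change (otherwise the 2 most abundant), and markers as the 2 most abundant per list. Other genes, among them Siglech, Ccr9, Cpa3, C1qa, Mrc1 and Adam10, were named after their values were seen. Not every list gene is named, and 1 called marker is not reported here by name.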

Additional observations from a re-analysis of the deposited data

How the results depend on the processing

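No paired analysis was possible because the labels give no replicate numbers. The replicate numbers used here follow the order in which the samples are listed, and equal numbers do not pair libraries across groups. All log2 fold changes of the 7 genes kept their sign under every alternative run. Leaving out 1 library, they ran from 0.392 to 0.949 (Kitl), 0.727 to 1.17 (Il7), 0.622 to 1.08 (Flt3l), 0.0023 to 0.592 (Il15), -2.01 to -0.958 (Kit), -2.97 to -2.13 (Il7r) and -6.65 to -3.25 (Flt3). DESeq2 also called Kit (-1.52) and Il7 (0.894), limma on the deposited log2 values called Flt3 (-1.08), and Il7r was not called by limma-voom (-2.44) or at an adjusted p below 0.01 (-2.61). The number of the 7 called was 1 in the main comparison, 3 by DESeq2, 0 by limma-voom, 2 on the deposited log2 values, 0 at the 0.01 threshold and 0 to 3 without a library. All genes called numbered 1333 by DESeq2, 80 at 0.01 and 74 to 577 without a library. Pathway calls were 1 at 0.01 and 1 to 7 without a library, and marker calls 12 at 0.01 and 12 to 41 without a library. With a pseudocount of 1 CPM the Flt3/Flt3l and Flt3/Ptprc differences were -3.47 and -0.20. Leaving out 1 library, the Il7r/Ptprc difference ran from -0.147 to 0.297, Kitl over CAR markers -0.387 to 0.13, Il7 -0.00993 to 0.366 and Flt3l -0.0923 to 0.277. Signs of uncalled genes turned in some refits, each over its range without a library: Adam17 -0.303 to 0.125 (0.0551 and 0.00587 without control replicates 2 and 3), Spp1 -0.373 to 0.399 (0.00815 without CXCL12-deficient replicate 3; 0.0509 by limma-voom and 0.0187 on the deposited log2 values), Igf1 -0.496 to 0.506 (-0.117 without control replicate 1), Vcam1 -0.12 to 0.39, Gfi1b -0.543 to 0.123 (0.0711 without control replicate 2), Tcf7 -0.545 to 0.349, Beta-s -0.0275 to 1.22, Eng -0.0259 to 0.201 and Col1a1 -1.58 to 0.966. The cause was not tested. Depth limits Flt3 most, with 44 reads in all CXCL12-deficient libraries.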
